A study of Mus musculus with 2 samples.

Results

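The genes of MHC class II presentation are 10 of the 32285 genes in the tables: H2-Aa, H2-Ab1, H2-Eb1, H2-DMa, H2-DMb1, H2-DMb2, H2-Oa, H2-Ob, Cd74 and Ciita. They were taken by name and not by a measured value, though with earlier results of these data known. All 10 were found with UMIs in both libraries. Their RNA was described over the macrophage subsets, dendritic cells, monocytes and B cells of neonatal mouse hearts after myocardial infarction (MI), with and without LYVE-1, the hyaluronan receptor of lymphatic endothelium and some tissue-resident macrophages.

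MHC class II molecules are pairs of an alpha and a beta chain that show peptides from engulfed material to CD4+ T cells. H2-Aa and H2-Ab1 encode both chains of I-A and H2-Eb1 the beta chain of I-E, and Cd74 encodes the invariant chain that fills the peptide groove and guides the pair to endosomes. There H2-M (H2-DMa with H2-DMb1 or H2-DMb2) exchanges the remnant of the invariant chain for peptide, H2-O (H2-Oa with H2-Ob) restrains H2-M, and Ciita is the coactivator that switches the whole set on. Dendritic cells and B cells carry these genes constitutively, whereas macrophages are known to gain them on exposure to interferon-gamma.

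WT and Lyve1 KO (Lyve1-/-, a global knockout) hearts were compared, each as 1 library of live (7-AAD-) CD45+ cells sorted from 5 pooled hearts. MI was made on postnatal day 2 in both groups and the hearts were collected after 7 days, when the mice were 9 days old, so neither library is uninjured. Single-cell RNA was tagged at the 5′ end with molecular identifiers (UMIs). Because the hearts of a genotype were pooled and cells were not assigned to hearts here, each genotype is 1 sample, and differences between the genotypes are given as values with no test.

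After filtering, 4180 WT and 3367 Lyve1 KO cells remained, with medians of 11156 and 12798 UMIs per cell, and 3 kept cell barcodes occurred in both libraries. Lyve1 itself fell from 249 counts per 1e+06 UMIs (CPM; Poisson interval 245 to 253) in WT to 12.9 (12.0 to 13.9) in Lyve1 KO. Clusters were built with the 10 genes, the pathway and comparison lists, Lyve1 and sex-linked genes kept out of the genes used for clustering. Each was called after a cell type only by marker genes, so that every class name below means cells like that type. Macrophage markers summed to 32494 and 31773 CPM in the CCR2- macrophage class and to 238 and 220 CPM in cDC1, and the B cell list to 12630 and 12968 CPM in follicular-type B cells against 349 and 327 CPM in CCR2- macrophages. The cDC2 list was less sharp, with 1611 and 1037 CPM in the cDC2 class and 2201 and 2334 CPM in plasmacytoid dendritic cells (pDC). A further 941 WT and 631 Lyve1 KO cells, of medians 1353 and 977 UMIs, stayed without a name.

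Of the 10 genes, 8 lie together on chromosome 17 within 224 kb, between positions 34092340 and 34316674 of build GRCm38. From low to high coordinate they are H2-Oa, H2-DMa, H2-DMb2, H2-DMb1, H2-Ob, H2-Ab1, H2-Aa and H2-Eb1. The peptide transporter genes Tap1 and Tap2 and the proteasome genes Psmb8 and Psmb9, all of the class I pathway, lie between H2-DMb1 and H2-Ob. H2-Aa is on the minus strand and the other 7 on the plus strand. Ciita lies on chromosome 16 (10480059 to 10528418). The 5′ end of the H2-DMa annotation overlaps Brd2 on the opposite strand (34112023 to 34122634), and the sources used here do not say whether counting used the strand.

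Class II genes are known for a shared upstream block, the X box bound by RFX and the Y box bound by NF-Y, on which CIITA assembles. Promoter stretches of 6 members describe this block, the first 4 with letters of both boxes and the last 2 of the Y box only. They were read from RefSeq promoters of build GRCm38.p6, 5′ to 3′ on the gene's strand, with X box letters AACNNATG and Y box letters GATTGG in capitals.
H2-Eb1 (chr17:34305771-34305816, plus strand): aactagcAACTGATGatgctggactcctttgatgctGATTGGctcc
H2-DMb1 (chr17:34153093-34153138, plus strand): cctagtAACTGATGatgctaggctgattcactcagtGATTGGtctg
H2-DMb2 (chr17:34145122-34145167, plus strand): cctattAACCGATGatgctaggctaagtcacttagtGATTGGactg
H2-Ob (chr17:34238811-34238856, plus strand): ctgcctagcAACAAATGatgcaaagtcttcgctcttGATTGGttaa
H2-Aa (chr17:34287863-34287908, minus strand): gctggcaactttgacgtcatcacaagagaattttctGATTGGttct
H2-Oa (chr17:34092299-34092344, plus strand): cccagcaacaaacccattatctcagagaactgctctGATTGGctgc

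Both sets of letters, with 10 to 30 bases between them, stood within the 250 bases before the start of H2-Eb1 (21 bases between), H2-DMb1 (22), H2-DMb2 (22) and H2-Ob (19). That pair occurred in 25 of 32851 promoters (0.0761%), while the X letters alone were in 7.71% and the Y letters alone in 14.6%, on either strand. H2-Aa and H2-Oa held the Y letters only, and of the 2 promoters listed for H2-DMa, 1 held the Y letters far from the start and 1 held neither. Boxes spelled with other letters were not searched for, so a missing match does not show a missing box. The letters were chosen after the promoters of these genes had been read, they are a description and not measured binding, and the promoters of H2-Ab1, Cd74 and Ciita were not in the table used here.

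RNA of the class II chains was concentrated in dendritic cells and B cells. H2-Aa, H2-Ab1 and H2-Eb1, summed as the classical chains, had 121183 UMIs in the kept WT cells and 123078 in the kept Lyve1 KO cells. The cDC1 and cDC2 classes were 73 WT cells (1.75% of kept cells) and held 51.2% of these UMIs, and in Lyve1 KO 75 cells (2.23%) held 52.7%. Both B cell classes together held 23.2% in WT, from 10.2% of the cells, and 28.9% in Lyve1 KO, from 14.7%. CCR2-, CCR2+ and cavity-type macrophages were 33.7% of kept WT cells and 21.4% of kept Lyve1 KO cells, and held 19.7% and 13.5% of the classical-chain UMIs.

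The summed level of the classical chains in cDC1, the cross-presenting dendritic cells, was 29002 CPM in WT and 24869 CPM in Lyve1 KO. In cDC2 it was 22200 and 19399 CPM, in migratory dendritic cells 8628 and 10212 CPM, and in pDC 1320 and 2834 CPM. Few cells stood behind the last 2 classes. Migratory dendritic cells were 40 WT cells of median 3037 UMIs and 7 Lyve1 KO cells of median 34666 UMIs, and pDC 14 and 8 cells. In these, 3 cells held 51.9% and 96.4% of the classical-chain UMIs of migratory dendritic cells, and 70.7% and 99.8% of those of pDC. Follicular-type B cells had 5653 and 4834 CPM and B-1-type B cells 3824 and 3468 CPM. Both libraries gave the order cDC1, cDC2, migratory dendritic cells, follicular-type B cells, B-1-type B cells, in which the place of migratory dendritic cells rests on those few cells.

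CCR2+ macrophages, the monocyte-derived subset, came next with 3706 CPM (Poisson interval 3647 to 3766) in WT and 2380 CPM (2335 to 2424) in Lyve1 KO. That range overlapped those of B-1-type B cells and pDC, so these neighbours did not separate over the libraries. CCR2- macrophages had 320 CPM (313 to 327) and 470 CPM (458 to 482), classical monocytes 258 and 208 CPM, and non-classical monocytes 204 and 19.4 CPM. Neutrophils, which should lack the genes, had 9.08 and 2.66 CPM, and T or NK cells 15.4 and 24.9 CPM. These intervals, and all others in the text, cover counting error only.

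**Figure D1:**
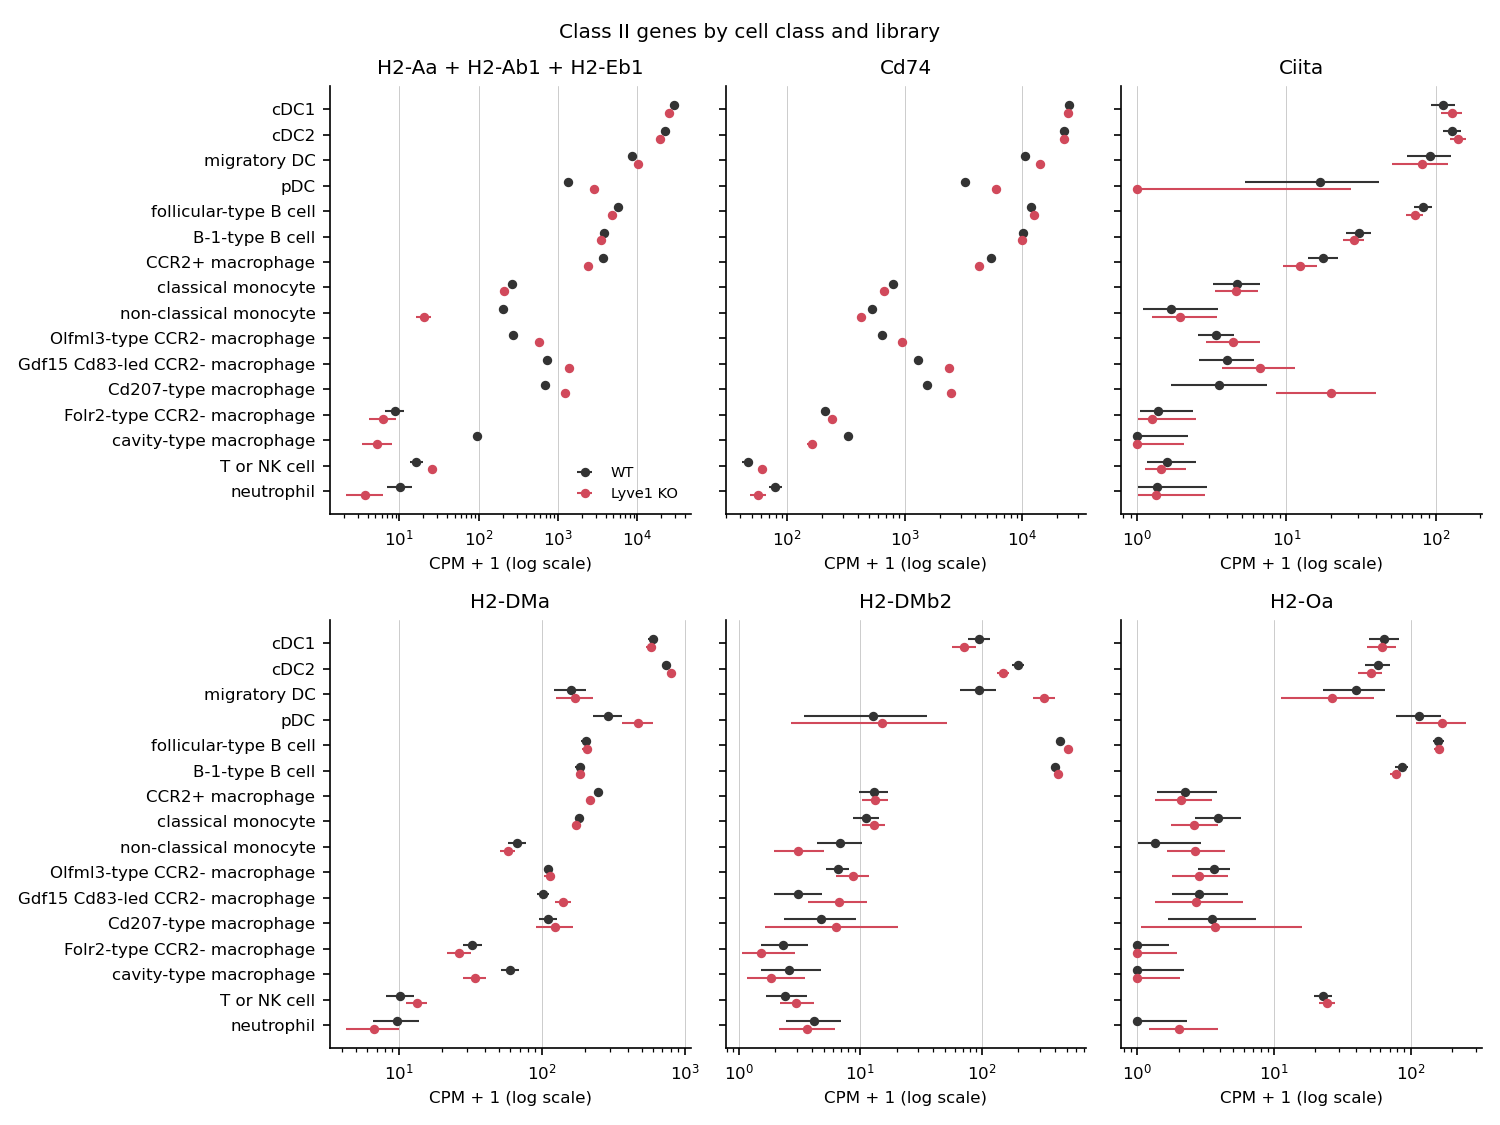
Level of the 3 classical chains summed and of Cd74, Ciita, H2-DMa, H2-DMb2 and H2-Oa in each cell class, as CPM + 1 on a log axis. Dark points are the WT library, red points the Lyve1 KO library, and bars are 95% Poisson intervals. The classical chains run from 29002 CPM in WT cDC1 to 2.66 CPM in Lyve1 KO neutrophils, while H2-DMb2 is highest in follicular-type B cells (442 and 508 CPM).

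The single chains mostly followed this order, but not H2-Ab1 in WT, which had 1260 CPM in migratory dendritic cells against 1383 CPM in follicular-type B cells, and 883 CPM in B-1-type B cells against 988 CPM in CCR2+ macrophages. H2-Aa, the I-A alpha chain, had 11212 (WT) and 10016 (Lyve1 KO) CPM in cDC1, 2513 and 2149 CPM in follicular-type B cells, 1606 and 1101 CPM in CCR2+ macrophages and 142 and 195 CPM in CCR2- macrophages. H2-Ab1, the I-A beta chain, had 8499 and 7313, 1383 and 1191, 988 and 643, and 76.7 and 121 CPM in the same classes. H2-Eb1, the I-E beta chain, had 9291 and 7540, 1758 and 1493, 1112 and 636, and 101 and 155 CPM.

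The proportions of the 3 chains differed little between the libraries in cDC2 and follicular-type B cells. H2-Aa was 39.5%, H2-Ab1 28.8% and H2-Eb1 31.7% of the classical UMIs of cDC2, and the same to this precision in both libraries. Follicular-type B cells had 44.4%, 24.5% and 31.1% in WT and 44.5%, 24.6% and 30.9% in Lyve1 KO. Other classes had other proportions. H2-Ab1 was 14.6% (13.4 to 15.9) and 20.8% (19.3 to 22.3) of the classical UMIs of migratory dendritic cells, and H2-Aa 48.5% (43.0 to 54.0) and 57.6% (52.6 to 62.4) of those of pDC. UMIs count molecules by their 5′ ends, so levels were not divided by transcript length.

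The levels in macrophages and monocytes came from few cells. To compare cells of unlike depth, each cell was thinned to 5800 UMIs, shallower cells were left out, and a cell with at least 10 UMIs of the classical chains was counted as carrying many. All 23 WT cDC1 did (100%, exact binomial interval 85.2 to 100), and all 25 in Lyve1 KO (86.3 to 100), with medians of 160 and 145 UMIs. Among cDC2 they were 37 of 46 cells (80.4%, 66.1 to 90.6) and 39 of 46 (84.8%, 71.1 to 93.7).

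Follicular-type B cells reached the limit in 164 of 203 WT cells (80.8%, 74.7 to 86.0) and 190 of 264 Lyve1 KO cells (72.0%, 66.1 to 77.3), with 105 and 61 shallower cells left out. Their medians were 35 and 26.5 UMIs, and 38 and 62 cells lay near the limit, with 5 to 19 UMIs. In B-1-type B cells 91 of 118 (77.1%) and 118 of 167 (70.7%) reached it, with medians of 21.5 and 17 UMIs. At equal depth the median B cell thus carried fewer classical-chain UMIs than the median cDC1 or cDC2.

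CCR2+ macrophages were split into cells with and without the genes. At least 10 UMIs were seen in 37 of 151 WT cells (24.5%, 17.9 to 32.2) and 33 of 148 Lyve1 KO cells (22.3%, 15.9 to 29.9), while 63.6% and 66.2% had none. The intervals of the share overlapped between the libraries, and the highest cells had 235 and 138 UMIs. Between 5 and 19 UMIs lay only 14 and 15 cells.

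CCR2- macrophages had far fewer such cells, 31 of 1077 (2.88%, 1.96 to 4.06) in WT and 14 of 442 (3.17%, 1.74 to 5.26) in Lyve1 KO. No classical-chain UMI was seen in 90.8% and 91.6% of them, while their highest cells had 227 and 196 UMIs, above the medians of cDC1. Classical monocytes had 10 of 232 (4.31%, 2.09 to 7.78) and 6 of 243 (2.47%, 0.911 to 5.30), and non-classical monocytes 2 of 185 (1.08%) and 0 of 245, where a count of 0 allows up to 1.22% (3 cells of the total). Neutrophils had 0 of 272 and 0 of 268 cells, which allows up to 1.10% and 1.12%.

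The CCR2- macrophage class held subsets that differed in these genes. In the Folr2 type, where Lyve1 was highest in WT (1606 CPM, and 35.7 CPM in Lyve1 KO), the classical chains had 7.80 CPM (5.59 to 10.6) in WT and 5.21 CPM (3.18 to 8.05) in Lyve1 KO, intervals that overlap those of neutrophils in the same library. None of 187 and none of 125 Folr2-type cells had 10 UMIs, which allows up to 1.60% and 2.4%, and the highest cells had 1 and 2 UMIs. A further cluster nearest to the Folr2-type list, led by Plxna4 and of low depth (137 and 69 cells), was kept apart from this type. In it 2 of 75 and 1 of 26 cells had 10 UMIs or more, and the highest had 29 and 16. The Olfml3 type had 268 and 580 CPM, a cluster led by Gdf15 and Cd83 had 719 and 1371 CPM, and the Cd207 type 679 and 1229 CPM. Of those subsets 11 of 468 and 5 of 172, 10 of 180 and 6 of 73, and 7 of 76 and 2 of 16 cells had 10 UMIs or more. In the cluster led by Gdf15 and Cd83 3 cells held 59.8% (WT) and 70.8% (Lyve1 KO) of the classical-chain UMIs. In the Cd207 type 3 of 77 and 3 of 17 cells held 64.4% and 99.8%, so the levels of these subsets rested on few cells.

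The Olfml3 type exceeded the Folr2 type in both libraries by a log2 ratio of 3.20 (WT) and 4.40 (Lyve1 KO) for H2-Aa, 2.57 and 3.81 for H2-Ab1, 3.07 and 4.08 for H2-Eb1, 1.57 and 1.95 for Cd74, and 1.52 and 1.79 for H2-DMa, all with 10 CPM added. H2-DMb1 differed by 0.83 and 1.59. In the Olfml3 type 3 of 478 WT and 3 of 176 Lyve1 KO cells held 52.3% and 81.8% of the classical-chain UMIs. The 3 highest cells held 28.9% and 59.6% for Cd74, and 4.18% and 11.2% for H2-DMa. At equal depth 92.5% and 91.9% of Olfml3-type cells had no classical-chain UMI, against 96.8% and 97.6% of Folr2-type cells. The ratios of the classical chains, which also enter the next count, thus rested largely on few cells. Ratios of at least 1 in both libraries were counted among genes with at least 100 UMIs in both types together, in each library. The classical chains met this limit through the Olfml3 type, since the Folr2 type held only 41 and 20 of their UMIs. For them the count is thus not independent of their level there. Of the 6 class II genes tested, 5 were higher in the Olfml3 type, against 1.85% of the 7713 genes tested. Beside this, Ccr2 stood at 59.3 and 115 CPM in the Olfml3 type and at 5.13 and 0.521 CPM in the Folr2 type.

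Within the CCR2- macrophage class, carrying many class II UMIs went with the cell's other genes. In WT none of 372 cells with a Lyve1 UMI had 10 class II UMIs (which allows up to 0.806%), against 31 of 705 cells without one (4.40%, 3.01 to 6.18). With a Folr2 UMI it was 2 of 575 WT cells (0.348%, 0.0422 to 1.25) and 3 of 253 Lyve1 KO cells (1.19%), and without one 29 of 502 (5.78%, 3.90 to 8.19) and 11 of 189 (5.82%, 2.94 to 10.2). With a Ccr2 UMI it was 21 of 97 (21.6%, 13.9 to 31.2) in WT and 12 of 41 (29.3%, 16.1 to 45.5) in Lyve1 KO, and without one 10 of 980 (1.02%, 0.490 to 1.87) and 2 of 401 (0.499%, 0.0605 to 1.79). Within the Olfml3 type alone it was 10 of 51 and 5 of 21 cells with a Ccr2 UMI and 1 of 417 and 0 of 151 without. The class II-carrying cells of this class were thus mostly those with a Ccr2 UMI, and the class name holds for the class as a whole and not for each cell.

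**Figure D2:**
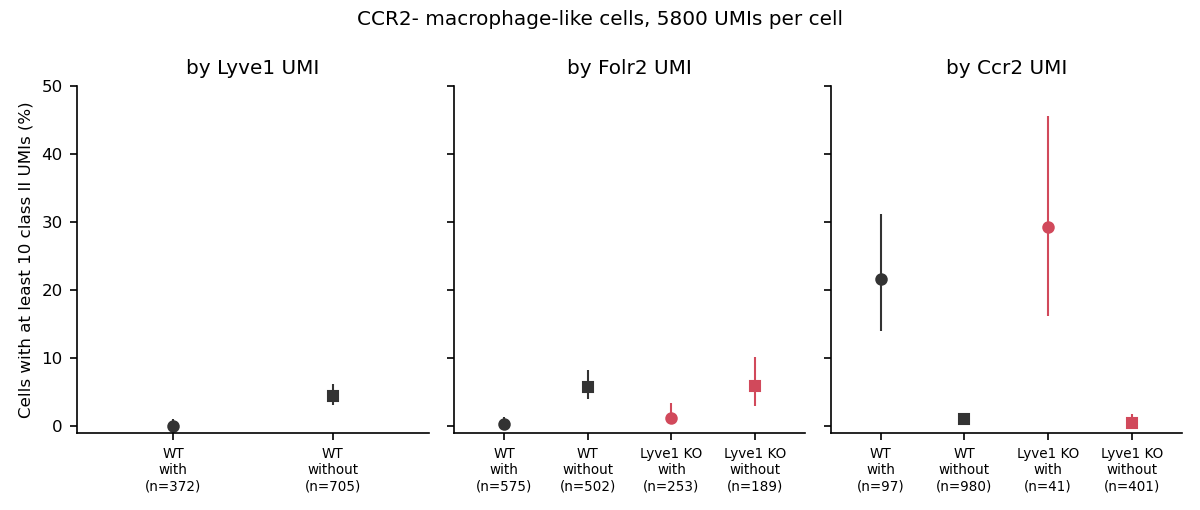
Percent of CCR2- macrophage-like cells with at least 10 class II UMIs, among cells with and without a UMI of Lyve1, Folr2 or Ccr2, all thinned to 5800 UMIs. Points are libraries (WT dark, Lyve1 KO red) and bars 95% exact binomial intervals. The share is 0 with a Lyve1 UMI in WT, below 1.2% with a Folr2 UMI, and 21.6% and 29.3% with a Ccr2 UMI.

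Marker lists went the same way in part. The 31 WT and 14 Lyve1 KO class II-carrying cells had 1444 and 1404 CPM of the Folr2-type list. The other cells of the class had 7638 and 7647 CPM. The Olfml3-type list differed less, at 1858 and 2179 against 2374 and 2287 CPM. So did the list of macrophage markers, at 30514 and 27795 against 32783 and 32188 CPM. The CCR2+ list stood at 2760 and 3174 against 861 and 926 CPM. For the classical monocyte list it was 782 and 1121 against 47 and 68 CPM. The complement gene C1qa, a macrophage marker, was found in 29 of 31 and 13 of 14 of the class II-carrying cells. The cDC1 list was higher in them, at 492 and 446 CPM against 323 and 303 CPM, and the migratory dendritic cell list was 36.4 CPM and 0 against 14.9 and 22.7 CPM. The part of these lists in the class II level was not tested. The B cell list stood at 361 and 222 CPM against 348 and 330, the cDC2 list at 85 and 108 against 149 and 212 CPM, Cd79a and Cd209a had no UMI in any of these cells, and the dendritic cell receptor gene Flt3 was found in 0 and 1 cell.

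In CCR2+ macrophages the 37 WT and 33 Lyve1 KO class II-carrying cells also had macrophage genes. Adgre1, the F4/80 antigen, was found in 36 and 32 of them, C1qa in 23 and 19, and Ccr2 in 34 and 33. Cd209a was found in 2 and 2, Flt3 in 2 and 1, Cd79a in 2 and 1, and Ms4a1 in none. The cDC2 list was at 438 and 292 CPM in these cells and at 269 and 347 CPM in the rest of the class, so it was higher in WT and lower in Lyve1 KO, and its part in the class II level was not tested.

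Ciita, the coactivator, was read over the same classes. It reached 112 (91.6 to 135) and 128 CPM in cDC1, 129 and 140 CPM in cDC2, 81.5 and 71.3 CPM in follicular-type B cells, 29.5 and 27.2 CPM in B-1-type B cells, and 16.6 and 11.4 CPM in CCR2+ macrophages. In CCR2- macrophages it had 2.13 and 2.95 CPM, from 26 and 14 cells. In classical monocytes it had 3.62 and 3.61 CPM, in the Folr2 type 0.380 and 0.260 CPM, and in neutrophils 0.349 and 0.333 CPM.

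Within CCR2+ macrophages a Ciita UMI was found in 24 of 37 (64.9%) and 16 of 33 (48.5%) class II-carrying cells, against 5 of 114 (4.39%) and 5 of 115 (4.35%) of the others. In CCR2- macrophages it was 13 of 31 and 10 of 14 against 12 of 1046 and 2 of 428. The groups of cells differed less in depth, with medians of 28273 and 31614 UMIs for the class II-carrying CCR2+ macrophages and 23660.5 and 27342 UMIs for the others. A Ciita UMI was thus found in a larger share of the class II-carrying cells than of the others, in both macrophage classes and both libraries. Many class II-carrying cells had none, and Ciita had few UMIs. In pDC, classical chains were found in 8 of 14 and 4 of 8 cells. Ciita there stood at 15.8 CPM in WT, from 4 UMIs, and 0 in Lyve1 KO. With 8 cells in Lyve1 KO, that 0 does not place its level.

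Cd74, on chromosome 18 (60803848 to 60812652), was more widespread than the chains it accompanies. It had 25355 and 24504 CPM in cDC1, 22883 and 22911 CPM in cDC2, 12051 and 12764 CPM in follicular-type B cells, 10246 and 10085 CPM in B-1-type B cells and 5442 and 4298 CPM in CCR2+ macrophages. Levels in CCR2- macrophages were 699 and 928 CPM, in classical monocytes 800 and 672 CPM, and in non-classical monocytes 529 and 426 CPM. At 5800 UMIs a Cd74 UMI was found in 48.4% of CCR2- macrophages in each library, against 9.19% and 8.37% for any classical-chain UMI.

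In the Folr2 type a Cd74 UMI was found in 46.0% and 50.4% of cells and a classical-chain UMI in 3.21% and 2.40%. Neutrophils, which should lack Cd74, had a UMI of it in 15.8% and 13.8% of cells (78.6 and 55.9 CPM), below the 211 and 239 CPM of the Folr2 type. Cd74 made up 46.6% and 49.6% of the UMIs of Cd74 and the classical chains together in cDC1, 68.1% and 72.5% in follicular-type B cells, 59.5% and 64.4% in CCR2+ macrophages, and 96.4% and 97.9% in the Folr2 type. The invariant chain was therefore present in macrophages whose classical chains were at the level of neutrophils.

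H2-DMa, the alpha chain of H2-M, was spread over more classes. It had 741 (WT) and 808 (Lyve1 KO) CPM in cDC2, 597 and 582 CPM in cDC1, 289 and 471 CPM in pDC, 247 and 217 CPM in CCR2+ macrophages, and 204 and 206 CPM in follicular-type B cells. Classical monocytes had 181 and 174 CPM, the Olfml3 type 110 and 113 CPM, and the Folr2 type 31.8 and 25.5 CPM. Neutrophils had 8.73 and 5.66 CPM. At 5800 UMIs, 57.3% and 53.9% of classical monocytes and 33.9% and 29.9% of CCR2- macrophages had an H2-DMa UMI, against 4.41% and 2.99% of neutrophils, although few of these monocytes and macrophages had classical chains.

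The beta chain of H2-M changed with the cell type. H2-DMb1 had 769 and 645 CPM in cDC1, 707 and 756 CPM in cDC2 and 144 and 132 CPM in CCR2+ macrophages, but 52.1 and 48.3 CPM in follicular-type B cells. H2-DMb2 was the reverse, with 442 and 508 CPM in follicular-type B cells, 403 and 420 CPM in B-1-type B cells, 198 and 149 CPM in cDC2, 94.1 and 71.0 CPM in cDC1, and 12.0 and 12.3 CPM in CCR2+ macrophages. H2-DMb2 was 89.5% (87.7 to 91.1) and 91.3% (89.96 to 92.5) of the UMIs of both beta chains in follicular-type B cells and 94.3% in B-1-type B cells of both libraries together. It was 10.9% (8.87 to 13.2) and 9.93% (7.96 to 12.2) in cDC1, 21.9% and 16.4% in cDC2, 7.66% and 8.49% in CCR2+ macrophages, and 9.23% and 8.80% in CCR2- macrophages.

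The values of both B cell classes did not overlap those of cDC1, cDC2 and both macrophage classes in either library. Migratory dendritic cells had 36 of 89 UMIs (40.4%) in WT and 90 of 100 (90%) in Lyve1 KO, all 90 from 3 of 7 cells, so that the latter lay in the B cell range. Neutrophils had 9 of 12 and 8 of 8. The genes are near copies, and 517 of the 1648 stretches of 31 bases in H2-DMb1 transcripts (31.4%) also occur in H2-DMb2 (29.7% of its 1741), so part of the reads of either could not be placed, and low values of either gene are uncertain. Both have the X and Y letters at the same spacing of 22 bases.

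H2-Oa and H2-Ob, the chains of H2-O, were both found in B cells, cDC1 and cDC2, and H2-Oa also reached 83.4 CPM in a WT cluster of NK or ILC-like cells led by Il5 and Il13 and 101 CPM in WT mast cell- or basophil-like cells. H2-Ob had 439 and 478 CPM in follicular-type B cells, 218 and 188 CPM in B-1-type B cells, 141 and 126 CPM in cDC1 and 44.5 and 31.9 CPM in cDC2. H2-Oa had 158 and 160 CPM, 85.0 and 76.8 CPM, 63.1 and 60.5 CPM, and 56.2 and 49.9 CPM in those classes. In CCR2+ macrophages, which had the classical chains, H2-Oa stood at 1.22 and 1.08 CPM and H2-Ob at 0.977 and 1.29 CPM, each from 4 to 6 UMIs.

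H2-Oa was 43.8% of the UMIs of H2-Oa and H2-DMa in follicular-type B cells in each library, 31.6% and 29.4% in B-1-type B cells, 9.55% and 9.43% in cDC1, and 0.492% and 0.493% in CCR2+ macrophages. Of these classes the restraining subunit was lowest relative to H2-M in CCR2+ macrophages. pDC had H2-Oa at 115 and 169 CPM but no H2-Ob UMI, which allows up to 11.9 and 21.1 CPM (3 UMIs per library).

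Across 33 clusters of at least 50 cells, the level of H2-Ab1 correlated (Pearson's r of log levels, both libraries summed) with H2-Aa and H2-Eb1 at 0.99, with Cd74 and H2-DMb1 at 0.91, H2-DMa at 0.90, Ciita at 0.84, H2-DMb2 at 0.78, H2-Ob at 0.65 and H2-Oa at 0.41. H2-DMb2 was closer to H2-Ob (0.92) and Ciita (0.88) than to the other beta chain gene H2-DMb1 (0.57) or the alpha chain gene H2-DMa (0.62). Clusters without a name were among the 33. The clusters of cDC1, migratory dendritic cells and pDC were smaller and left out, so cDC2 was the only class of dendritic cells. The clusters share libraries and cell lineages, so the values are a description with no test. Of 9276 genes ranked, members and lists included, the 10 most like H2-Ab1 outside the members and pathway lists are named here. They were Tlr9 and Pkib (0.76 each), Il4i1 (0.74), Ms4a4c (0.73), Gdi2 and Kmo (0.71 each), Slamf7, Siglecg and Fgd2 (0.70 each) and Tnfrsf13b (0.69). Of these, Kmo was also on the cDC2 and Ms4a4c on the classical monocyte marker list used to name clusters.

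The classes were then set against each other gene by gene. CCR2+ macrophages exceeded CCR2- macrophages by a log2 ratio of 3.41 (WT) and 2.44 (Lyve1 KO) for H2-Aa, 3.52 and 2.32 for H2-Ab1, 3.34 and 1.97 for H2-Eb1, 2.94 and 2.20 for Cd74, 1.44 and 1.34 for H2-DMa and 1.79 and 1.43 for H2-DMb1. H2-DMb2 gave 0.70 and 0.66. Of the 7 members with at least 100 UMIs in these classes together, in each library, 6 were higher by at least 1 in both libraries. Of 9365 genes 2.84% were, and the other member was H2-DMb2. cDC2 exceeded CCR2+ macrophages in 8 of 8 members tested, against 2.6% of 6299 genes. The ratios were 2.44 and 2.79 for H2-Aa, 2.07 and 2.41 for Cd74, 2.38 and 2.81 for Ciita and 3.24 and 2.83 for H2-DMb2. H2-DMb2 and Ciita met the limit of 100 UMIs there through cDC2. CCR2+ macrophages held 49 and 57 UMIs of H2-DMb2 and 68 and 53 of Ciita. Over classical monocytes, CCR2+ macrophages were higher by 3.64 and 3.45 for H2-Aa but only by 0.43 and 0.31 for H2-DMa.

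The comparison of Lyve1 KO with WT asks whether loss of the receptor went with another level of class II genes in the immune cells of the infarcted neonatal heart. Of the 8 classes compared, the ratio of the summed classical chains was smallest in size in cDC1, cDC2 and both B cell classes. With 10 CPM added to each level, the log2 ratio of Lyve1 KO over WT for the summed classical chains was -0.22 (counting interval -0.25 to -0.20) in cDC1, -0.19 (-0.22 to -0.17) in cDC2, -0.23 (-0.26 to -0.19) in follicular-type B cells and -0.14 (-0.17 to -0.11) in B-1-type B cells. All 10 members had at least 100 UMIs in each of these classes, and none reached a ratio of 1 in size. Over all genes tested 2.03% did so in cDC1, 1.85% in cDC2, 0.936% in follicular-type and 1.27% in B-1-type B cells. All 10 members lay inside the range from the 5th to the 95th percentile of all genes in each of the classes.

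In cDC1 1 of 10 members was above 0 and 9 below, with a median of -0.15 against -0.02 over all 3202 genes. In follicular-type B cells 5 were above and 5 below (median -0.04, all genes -0.03), with H2-DMb2 at 0.19 and H2-Ob at 0.12. The share of cells carrying many class II UMIs was lower in Lyve1 KO than in WT in both B cell classes, by intervals that overlapped.

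CCR2+ macrophages had lower classical chains in the Lyve1 KO library, at -0.64 (-0.67 to -0.60) for the sum, -0.54 for H2-Aa, -0.61 for H2-Ab1 and -0.80 for H2-Eb1. Cd74 was at -0.34 and Ciita at -0.31, with an interval from -0.61 to -0.02. None of the 8 members tested reached 1 in size, against 0.647% of 7422 genes. Their median was -0.33, that of all genes -0.03, and 5 of 8 lay between the 5th and 95th percentiles (-0.39 and 0.32). The share of cells with many class II UMIs was 24.5% and 22.3%, with overlapping intervals, and the 90th percentile of UMIs per cell was 84 in WT and 42.2 in Lyve1 KO.

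CCR2- macrophages were the other way, at 0.54 (0.49 to 0.59) for the sum, 0.43 for H2-Aa, 0.59 for H2-Ab1, 0.57 for H2-Eb1, 0.40 for Cd74 and 0.24 for H2-DMb1, while H2-DMa was at -0.08. None of 8 members reached 1, against 0.221% of 10876 genes, and 5 of 8 lay above the 95th percentile of all genes (0.20). The share of cells with many class II UMIs was 2.88% and 3.17%, with wide overlap. When the class II genes were not kept out of the clustering the ratio of the sum turned to -0.11, and as a mean of per-cell log values it was 0.014. Beside the ratio, the subsets made up other shares of the class in each library, with 478 of 1172 WT and 176 of 499 Lyve1 KO cells in the Olfml3 type. The Folr2 type, with the lowest level, had 193 and 126 of these cells. The cluster led by Gdf15 and Cd83 had 184 and 76, and the Cd207 type 77 and 17. Ccr2 stood at 49.4 CPM in WT and 86.1 CPM in Lyve1 KO. Their part in the ratio was not tested.

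**Figure D3:**
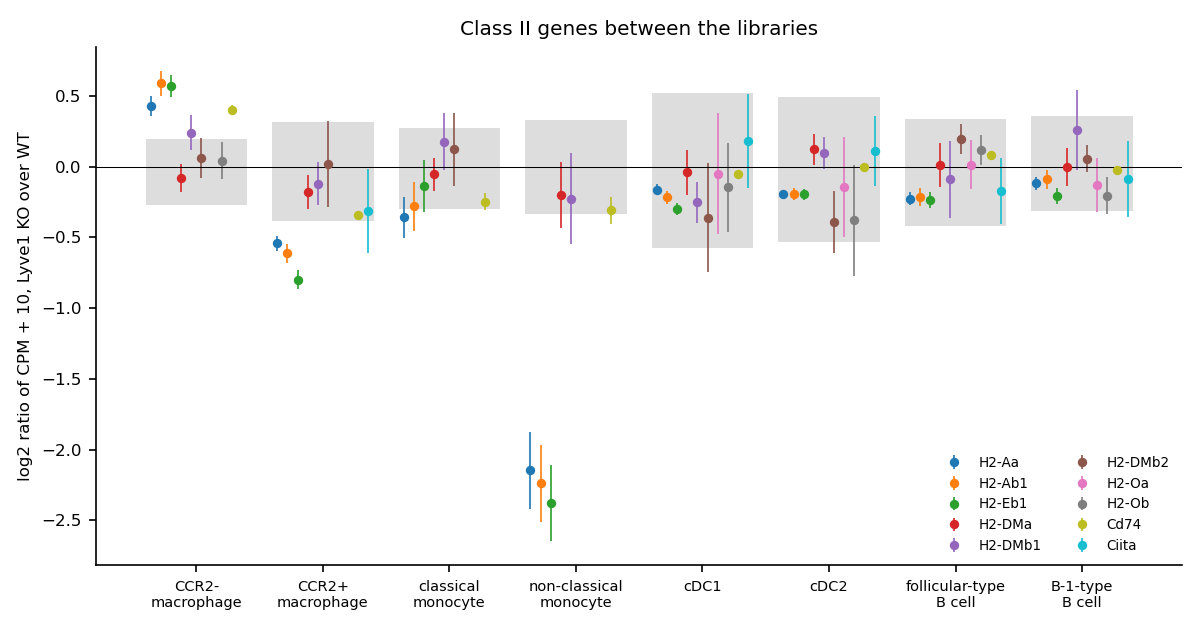
Log2 ratio of Lyve1 KO over WT for each class II gene with at least 100 UMIs in 8 cell classes, 10 CPM added. Points are genes, bars 95% counting intervals, and the grey band the 5th to 95th percentile of all genes tested in that class. The 10 genes stay inside the band in cDC1, cDC2 and both B cell classes, while 5 of 8 lie above it in CCR2- macrophages and H2-Aa, H2-Ab1 and H2-Eb1 lie below it in non-classical monocytes.

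In monocytes the ratio rested on single cells. Non-classical monocytes had 592 classical-chain UMIs in WT, of which 567 (95.8%) came from 3 of 249 cells, and 83 in Lyve1 KO, 36 of them from 3 of 302 cells. The log2 ratios were -2.14 for H2-Aa, -2.24 for H2-Ab1 and -2.38 for H2-Eb1, so that 3 of 6 members tested were past 1 in size, against 0.445% of 6967 genes. Without the 3 cells with the most member UMIs in each library the ratio of the sum was 0.27 instead of -2.87 (-3.10 to -2.63). Cd74 was at -0.31 with all cells.

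Classical monocytes had -0.30 (-0.40 to -0.19) for the sum, with 60.4% of the WT and 80.0% of the Lyve1 KO UMIs in 3 cells, and -1.15 without those cells. None of 7 members tested reached 1, against 0.237% of 8016 genes. Their median was -0.14, and 6 of 7 lay between the 5th and 95th percentiles of all genes (-0.30 and 0.27). Cavity-type macrophages had 94.2 and 4.26 CPM, with 287 of 293 WT UMIs in 3 cells. By contrast 3 cells held 4.37% and 4.12% of the classical-chain UMIs of follicular-type B cells, 19.9% and 15.5% of those of cDC2, 22.6% and 23.4% in CCR2+ macrophages and 27.9% and 37.5% in CCR2- macrophages.

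The rest of the pathway was read from lists of its inputs and partners. Of the enhanceosome (Rfx5, Rfxap, Rfxank, Nfya, Nfyb, Nfyc, Creb1), which binds the X and Y boxes, none of the 2 to 7 genes tested per class differed by 1 or more between the libraries in any of the 8 classes. Rfx5 stood at 5.77 and 6.84 CPM in CCR2- macrophages, 5.13 and 4.30 CPM in CCR2+ macrophages and 18.8 and 32.0 CPM in follicular-type B cells, so it varied less than the class II genes. Ifng, which encodes interferon-gamma, stood at 26.7 and 24.4 CPM in T or NK cells and had no UMI in CCR2- or CCR2+ macrophages, monocytes, cDC1 or cDC2. Of a list of 7 interferon-gamma target genes (Cxcl9, Cxcl10, Gbp2, Gbp4, Igtp, Irgm1, Iigp1), 1 of 6 tested was past 1 in size in CCR2- macrophages (Iigp1, 17.8 and 3.80 CPM, against 0.221% of all genes), 1 of 2 in cDC1 (Irgm1, 71.3 and 28.9 CPM, against 2.03%) and 1 of 3 in non-classical monocytes (Cxcl10, 10.7 and 41.6 CPM, against 0.445%). None of the 5 tested in CCR2+ macrophages, the 4 in classical monocytes or the 2 in each B cell class was, and in cDC2 none had enough UMIs to be tested. The median log2 ratio of these targets was -0.62 in CCR2+ and -0.32 in CCR2- macrophages. The 5th percentiles of all genes there were -0.39 and -0.27. In cDC1 the median was -0.55, in classical monocytes -0.13, in non-classical monocytes 0.29, and in follicular-type and B-1-type B cells 0.19 and 0.11. Their part in the class II level was not tested.

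Spi1, encoding PU.1, stood at 599 and 556 CPM in CCR2- and 509 and 488 CPM in CCR2+ macrophages and at 3.71 and 4.63 CPM in T or NK cells, so it did not follow the class II level among macrophages. Irf8 was highest in pDC (2506 and 1997 CPM) and cDC1 (1251 and 1316 CPM), and Irf4 in follicular-type B cells (293 and 245 CPM). Of the antigen proteolysis list (Ctss, Lgmn, Ctsb, Ctsl, Ctsd, Ifi30), Ifi30, a thiol reductase of endosomes, was nearest to H2-Ab1 over the 33 clusters, with r of 0.76, followed by Ctss (0.59), Lgmn (0.48), Ctsb (0.22), Ctsl (-0.050) and Ctsd (-0.11). Ifi30 had 1882 and 1757 CPM in cDC2, 949 and 1045 CPM in CCR2+ macrophages and 498 and 538 CPM in CCR2- macrophages. Ctss, the cathepsin that trims the invariant chain, had 3175 and 3476 CPM in CCR2+ macrophages, 1275 and 1232 CPM in CCR2- macrophages, 527 and 604 CPM in cDC1 and 436 and 424 CPM in follicular-type B cells. Lgmn, an endopeptidase, had 1732 and 1618 CPM in CCR2- macrophages and 281 and 336 CPM in cDC2. Between the libraries, Ctsd, an aspartic protease, was past 1 in size in cDC2 (151 and 335 CPM). It was 1 of 6 of the list there, against 1.85% of all genes, and none of the 4 to 6 tested in each of the other 7 classes was.

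March1, the ligase that removes class II from the surface, was highest in non-classical monocytes (323 and 399 CPM) and follicular-type B cells (311 and 317 CPM), and had 87.4 and 89.1 CPM in CCR2- macrophages. Cd86, a costimulatory ligand, was at 576 and 691 CPM in CCR2- macrophages and 362 and 322 CPM in cDC2. Of the turnover list, which holds March1, Il10 was past 1 in size in CCR2+ macrophages (33.7 and 1.29 CPM). It was 1 of 4 tested there, against 0.647% of all genes, and none of the 2 to 4 tested in each of the other 7 classes was. The class I genes, tested as a comparison list of 9 (H2-K1, H2-D1, B2m, Nlrc5, Tap1, Tap2, Tapbp, Psmb8, Psmb9), had none past 1 in any of the 8 classes. H2-K1 stood at 1294 and 1212 CPM in CCR2- macrophages and at 676 and 562 CPM in cDC1, an order opposite to that of the class II chains.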

How the data were processed

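CD45+ cells of 2 libraries were analysed, 1 per genotype. The authors deposited raw counts of UMIs per gene and cell, made with Cell Ranger 8.0.1 (submitters' processing notes) on mm10/GRCm38. Following the study's methods, cells under 500 genes, under 250 UMIs or over 30% mitochondrial UMIs were dropped. Total UMIs were 67968938 (WT) and 61555917 (Lyve1 KO) over 5713 and 5285 barcodes, and 105 and 97 presumed doublets were removed by Scrublet score at a rate of 0.4% per 1000 barcodes, since its automatic threshold marked 0 and 0. Clusters were made in Seurat 5.3.0 (R 4.3.3) with 2000 variable genes, 30 dimensions and resolution 0.8 after regressing out the cell cycle and integrating the libraries. UMIs were summed per class and library and scaled to counts per 1e+06 UMIs. Ratios had 10 CPM added. Genes needed at least 100 UMIs in a class over both libraries, or over both classes in each library where classes were compared. The ratio script was tested on simulated data. With 1 library per genotype no test was run, and pooled hearts were not separated. A list of interferon-gamma signalling genes is not reported here. Named genes are the 10 members, the pathway lists and the 10 genes most correlated with H2-Ab1. The members and lists were chosen with earlier results of these data known.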

Additional observations from a re-analysis of the deposited data

Results flagged for a closer look

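Cells were split by transcripts, taking cells with Xist and no UMI of the Y chromosome genes Uty, Kdm5d, Eif2s3y and Ddx3y as female and the reverse as male. The log2 ratio of the summed classical chains, Lyve1 KO over WT, then pointed in opposite directions in cells with female and with male transcripts in 3 classes, and these differences were not tested. In CCR2+ macrophages it was 0.12 in cells with female transcripts (2237 and 2425 CPM, 67 and 58 cells) and -1.09 in cells with male transcripts (5072 and 2382 CPM, 86 and 85 cells). In classical monocytes it was -1.57 in cells with female transcripts (141 and 40.8 CPM) and 0.20 in cells with male transcripts (270 and 311 CPM). In non-classical monocytes it was 0.046 (15.9 and 16.7 CPM) and -3.30 (330 and 24.4 CPM). Both monocyte classes rested on few cells. Before the split, 3 cells held 95.8% (WT) and 43.4% (Lyve1 KO) of the classical-chain UMIs of non-classical monocytes. In classical monocytes 3 cells held 60.4% and 80.0%. The lower level of the Lyve1 KO library in CCR2+ macrophages was thus seen in cells with male transcripts. Cells with female and with male transcripts come from different hearts of a pool. Sex, single hearts and, in monocytes, single cells therefore cannot be told apart here.

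Clusters without a name entered no comparison of classes, and those of at least 50 cells entered the correlations over clusters. They held classical-chain UMIs at 574 CPM in WT and 530 CPM in Lyve1 KO, above the 9.08 and 2.66 CPM of neutrophils. Of their 941 and 631 cells, 892 and 581 were too shallow to be thinned to 5800 UMIs.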

How the results depend on the processing

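No paired analysis was possible because each genotype had 1 library, and no replicate could be left out. The ratio of the summed classical chains, Lyve1 KO over WT, kept its direction in CCR2+ macrophages, classical monocytes and follicular-type B cells under every alternative run, and not in CCR2- macrophages, non-classical monocytes or cDC2. In CCR2- macrophages (0.54) it was -0.11 with all variable genes used for clustering, 1.34 without cell cycle regression, 0.67 at resolution 1.2, 0.046 with doublets kept, 0.44 with 100 CPM added, 0.36 without the 3 cells with the most member UMIs in each library and 0.014 as a mean of per-cell log values. In the same order of settings, CCR2+ macrophages (-0.64) gave -0.59, -0.34, -0.52 and -0.25, then -0.16 per cell. Classical monocytes (-0.30) gave -0.71, -1.07, -0.60 and -0.82, then -1.15 without 3 cells and -0.15 per cell. Non-classical monocytes (-2.87) gave 0.76 with all variable genes, 0.46 without cell cycle regression, -0.54 with doublets kept, -3.33 and -1.35 with 1 and 100 CPM added, 0.27 without 3 cells and -0.032 per cell. For cDC2 (-0.19) the values were -0.27 with all variable genes, -0.17 at resolution 1.2, -0.15 with doublets kept, -0.14 without 3 cells and 0.27 per cell, and without cell cycle regression cDC2 joined the pDC cluster and gave no value. Follicular-type B cells (-0.23) gave -0.19 without cell cycle regression, -0.18 with doublets kept, -0.19 without mitochondrial and ribosomal protein genes and -0.054 per cell.

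Single genes that turned sign in non-classical monocytes were H2-Aa (0.41, 0.33 and 0.12 with all variable genes, without cell cycle regression and without 3 cells), H2-Ab1 (0.65, 0.23 and 0.13) and H2-Eb1 (0.29, 0.19 and 0.18). Without 3 cells, cavity-type macrophages turned to 0.027 for H2-Aa and 0.14 for the sum, H2-DMb2 in migratory dendritic cells to -2.28, and pDC to -4.56 for H2-Aa, -3.67 for H2-Eb1 and -4.20 for the sum, with -0.31, -0.29 and -0.48 per cell. Apart from leaving out cells, the cause was not tested. The share of follicular-type B cells with many class II UMIs was 65.1% and 57.6% (WT and Lyve1 KO) at 3000 UMIs, 86.7% and 84.8% from 5 UMIs and 68.0% and 61.4% from 20 UMIs. That of WT non-classical monocytes was 0 with all variable genes. That of CCR2+ macrophages ranged from 19.2% to 28.5% in WT and 16.9% to 27.0% in Lyve1 KO. Depth limits Ciita, H2-Oa and H2-Ob in macrophages and monocytes, each at a few CPM.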

Other observations

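H2-Oa was also found in cells with hardly any classical chains. A cluster of NK or ILC-like cells led by Il5 and Il13 had H2-Oa at 83.4 CPM (66.5 to 103) in 35 of its WT cells and 55.7 CPM (43.1 to 70.8) in 28 of its Lyve1 KO cells, and H2-DMa at 9.92 and 5.06 CPM. Its classical chains stood at 2.98 CPM in WT and 43.0 CPM in Lyve1 KO, where 3 of 50 cells held 50 of the 51 UMIs. Mast cell- or basophil-like cells had H2-Oa at 101 CPM (68.9 to 142) and 54.4 CPM (27.1 to 97.3), with 0 and 1 classical-chain UMIs. The other T or NK cells had H2-Oa at 11.7 and 18.5 CPM. H2-Eb2, a further class II gene of the locus, was found mainly in follicular-type B cells (39.8 and 37.5 CPM) and B-1-type B cells (16.0 and 14.2 CPM), and stood at 0.114 CPM and 0 in CCR2- macrophages.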
